A study of Mus musculus with 6 samples.

Results

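The genes described here build ribosomes. They form a list of 34 ribosome biogenesis genes, of which 33 had a probe set annotated to that gene alone, out of 13146 such genes on the array. For each gene the probe set with the highest mean log2 intensity over the 6 arrays was taken, so the choice used brightness and not the difference between groups. Mrto4, a factor of the large subunit, was not measured because its probe set is annotated to further genes as well. All 33 measured genes were bright enough to be tested.

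The study compared a leukemia with normal progenitors in MF1 mice aged 12 to 16 weeks. The 3 leukemia samples were Lin-/Sca1-/cKit+ cells from the spleens of numbered mice, wild-type animals that had been lethally irradiated and then given hematopoietic progenitors transduced with AE9a. AE9a is a truncated form of AML1-ETO, the fusion of a blood transcription factor with a corepressor-binding protein that arises in acute myeloid leukemia. The 3 wild-type samples were Lin-/Sca1-/cKit+ cells from the bone marrow of MF1 mice. In both groups the sort takes cells that lack mature lineage antigens and Sca1 and carry the Kit receptor, a gate that in normal marrow holds committed myeloid progenitors. Leukemia cannot be told apart from spleen against marrow, nor from irradiation and transplantation. The wild-type labels speak of mice in the plural, so each such sample may pool animals. The p-values reflect how far these 6 samples vary, which may in part be technical.

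Ribosome biogenesis starts in the nucleolus, where RNA polymerase I transcribes the ribosomal RNA precursor. Small nucleolar ribonucleoprotein particles (snoRNPs) guide its chemical modification, and assembly factors cut and fold it into the small and the large subunit. Growing cells make ribosomes at a high rate, and the transcription factor MYC is known to activate many of these genes together with those of polyamine and nucleotide synthesis. In normal marrow, myeloid progenitors are proliferating cells with active nucleoli.

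Median intensity over all probe sets was 71.6 to 77.4 on the leukemia arrays and 77.7 to 79.9 on the wild-type arrays. Pairwise correlations over genes were 0.969 to 0.978 within leukemia and 0.992 to 0.994 within wild-type. Kit, the receptor used in the sort, was lower in leukemia on its brightest probe set. It measured 9.76, 9.80 and 9.34 on the log2 scale in leukemia, against 10.42, 10.42 and 10.35 in wild-type. Another probe set of Kit had the opposite sign, with 7.26, 7.92 and 7.71 in leukemia, against 7.80, 6.73 and 6.20 in wild-type. Its difference of 0.72 did not pass (limma adjusted p = 0.201). Cd34, a progenitor gene that was not part of the gate, was lower in leukemia. It measured 8.48, 6.52 and 7.55 in leukemia, against 10.90, 11.33 and 11.11 in wild-type. The summed intensity of 8 granulocyte precursor and neutrophil genes was 163 to 269 in leukemia and 25559 to 32163 in wild-type, and 6 of them, Mpo and Elane included, were dim (under the array's 40th percentile) on every leukemia array. The sum over 10 mast cell and basophil genes was 13611 to 25405 in leukemia and 4454 to 4969 in wild-type. Mcpt8 and Tpsb2 were dim on every leukemia array. In wild-type Tpsb2 was dim on every array too, whereas Mcpt8 measured 9.72, 9.59 and 10.03 (log2). For 6 erythroid genes the sum was 6351 to 9304 in leukemia and 4586 to 7981 in wild-type. Of these 6, 3 were called higher (50%, beside 16.9% of all tested genes) and none lower. Klf1 (-0.45), Epor (0.17) and Ermap (0.11) had overlapping groups and did not pass (log2, leukemia minus wild-type). Alas2 and Slc4a1 were dim on every wild-type array. For 7 monocyte and macrophage genes the sum was 223 to 362 in leukemia and 2264 to 3771 in wild-type. The part of this difference in cell types in the results was not tested. In such bulk samples, fewer cells of a type and less RNA per cell cannot be told apart.

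The ribosome biogenesis genes lay mostly lower in leukemia. Of the 33, 16 fell and 2 rose at an adjusted p under 0.05 (limma, Benjamini-Hochberg over the 9715 genes tested), and 15 did not pass. The 16 genes are 48.5% of the list, beside 25.2% of all tested genes called lower. The 2 risen genes are 6.06% of the list, beside 16.9% of all tested genes called higher, and 42.1% of all tested genes changed in either direction. The fitted change (log2, leukemia minus wild-type) was below 0 for 31 of the 33 genes, and for 5523 of all 9715 tested genes. Its median was -0.36 for the list, beside -0.09 over all tested genes. Changes of the list ran from -1.17 for Bop1 to 0.73 for Nop58. For 25 genes every leukemia array lay below every wild-type array, which held for 35.0% of all tested genes, and for 2 genes every leukemia array lay above, which held for 24.2%. The groups overlapped for Rrp9, Wdr74, Ftsj3, Ebna1bp2, Npm1 and Wdr43.

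**Figure D1:**
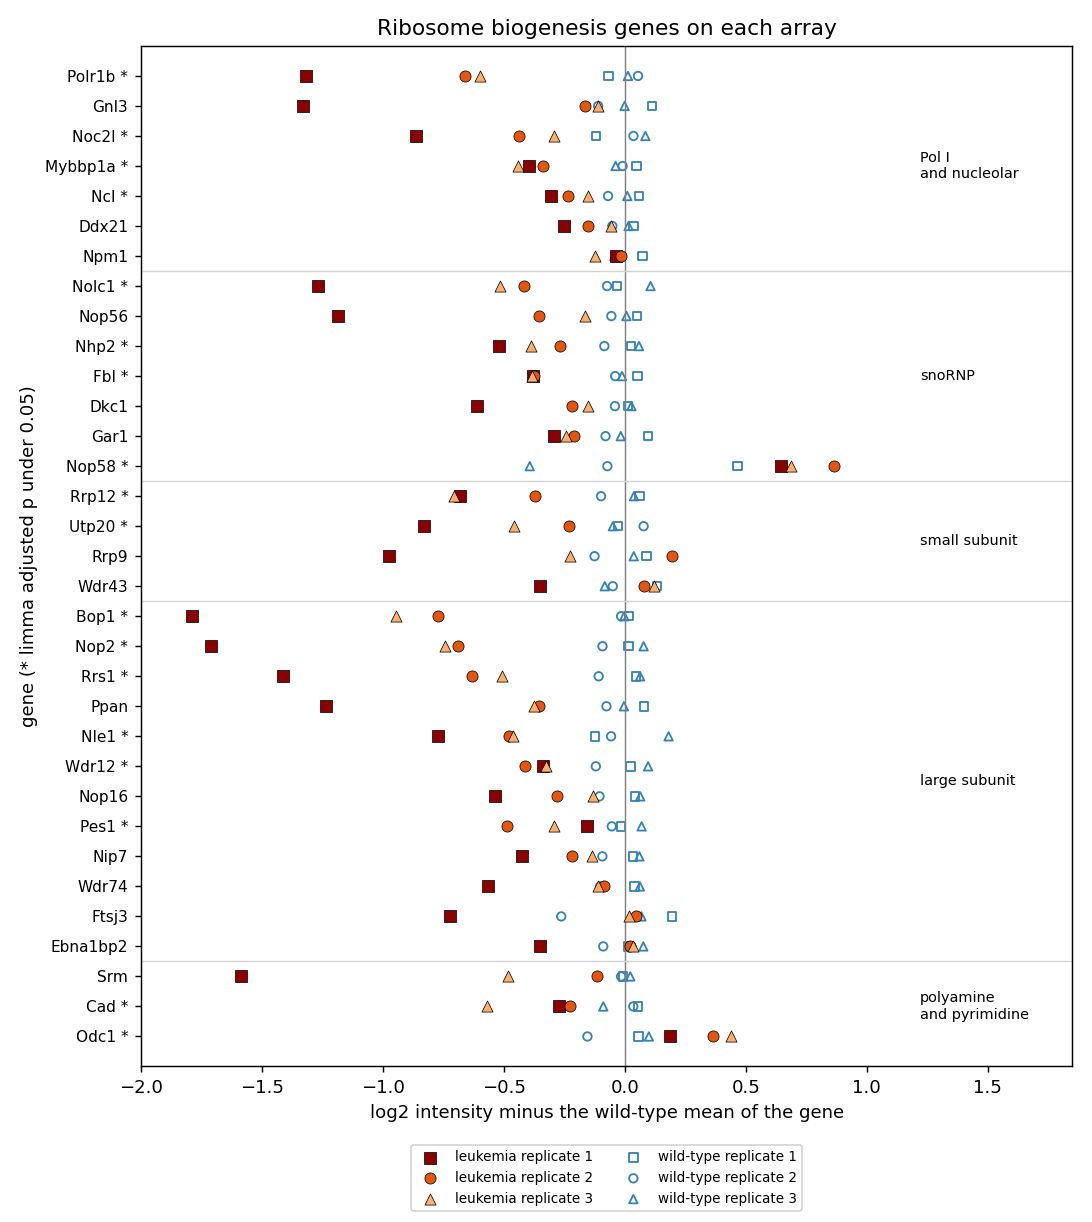
Log2 intensity of the 33 measured ribosome biogenesis genes on each array relative to the wild-type mean of the gene, by role, with a point for each leukemia and each wild-type array. Leukemia replicate 1 is the lowest leukemia array for 26 genes, and Nop58 and Odc1 are the genes with every leukemia array above every wild-type array.

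Among the 12 measured factors of the large subunit, 6 fell and none rose, with a median change of -0.34. Bop1, which with Pes1 and Wdr12 forms the PeBoW complex needed for maturation of the large-subunit RNA, measured 8.07, 9.09 and 8.91 on the leukemia arrays, against 9.88, 9.85 and 9.86 on the wild-type arrays (log2 intensity, replicates 1 to 3). Every leukemia array lay below every wild-type array, with replicate 1 well below the others. The change was -1.17 ± 0.25 (SE), 2.25-fold lower in leukemia, with a limma adjusted p of 0.0101. Its partner Wdr12 fell by less, with 10.02, 9.94 and 10.03 in leukemia, against 10.38, 10.24 and 10.45 in wild-type, a change of -0.36 ± 0.09 (limma adjusted p = 0.0156). The 3 leukemia arrays agreed closely for this gene. Pes1, the remaining partner, changed by -0.31 ± 0.10 (limma adjusted p = 0.0432), and its lowest leukemia array was replicate 2 at 10.12, against 10.45 for replicate 1.

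Nop2, a methyltransferase that modifies a cytosine of the large-subunit RNA, measured 7.88, 8.90 and 8.84 in leukemia, against 9.60, 9.49 and 9.66 in wild-type. Its change was -1.05 ± 0.27, 2.07-fold lower in leukemia (limma adjusted p = 0.0197), and again replicate 1 stood about 1 log2 unit under the other leukemia arrays. Rrs1, which helps to bring the 5S particle into the large subunit, measured 8.54, 9.32 and 9.44 in leukemia, against 10.00, 9.84 and 10.01 in wild-type, a change of -0.85 ± 0.23 (limma adjusted p = 0.025). Nle1, a large-subunit assembly factor, fell by 0.57 on the log2 scale (SE 0.15, limma adjusted p = 0.0239). The other 6 did not pass. Ppan came nearest, with a change of -0.65 (95% interval -1.21 to -0.10, limma adjusted p = 0.0617), followed by Nop16 at -0.32 (limma adjusted p = 0.0724) and Nip7 at -0.26 (limma adjusted p = 0.0936). Wdr74 had a change of -0.25, Ftsj3 of -0.22 and Ebna1bp2 of -0.10. For these 3 the groups overlapped, and the intervals of -0.60 to 0.09, -0.80 to 0.36 and -0.39 to 0.19 span falls as large as many of those called.

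Of the 7 snoRNP genes, 3 fell and 1 rose, with a median change of -0.38. Fbl, the methyltransferase of the box C/D snoRNPs that place methyl groups on ribosomal RNA, measured 12.19, 12.19 and 12.18 in leukemia, against 12.62, 12.52 and 12.55 in wild-type. It had the smallest adjusted p of the list, 0.000618 by limma, at a modest change of -0.38 ± 0.04, and the arrays of each group lay close together. Nop58 and Nop56, the paired scaffold proteins of the same particles, had changes of opposite sign. Nop58 measured 10.34, 10.56 and 10.38 in leukemia, against 10.16, 9.62 and 9.30 in wild-type. It rose by 0.73 ± 0.21, 1.66-fold (limma adjusted p = 0.0288), and here the wild-type arrays were the spread ones, with the nearest arrays of the groups only about 0.2 log2 units apart. Nop56 measured 10.42, 11.26 and 11.44 in leukemia, against 11.66, 11.55 and 11.62 in wild-type, a change of -0.57 that did not pass (95% interval -1.15 to 0.01, limma adjusted p = 0.103).

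The box H/ACA particles convert uridines of ribosomal RNA to pseudouridine. Their enzyme Dkc1 had a change of -0.33 (limma adjusted p = 0.0664) and its partner Gar1 one of -0.25 (limma adjusted p = 0.058), neither of which passed, although no leukemia array of either reached the wild-type range. Nhp2, another core protein of the particle, fell by 0.39 on the log2 scale (limma adjusted p = 0.00879), with 10.96, 11.21 and 11.09 in leukemia, against 11.51, 11.40 and 11.54 in wild-type. Nolc1, a chaperone of both kinds of snoRNP, measured 8.84, 9.69 and 9.59 in leukemia, against 10.08, 10.04 and 10.22 in wild-type. Its change of -0.73 ± 0.22 (limma adjusted p = 0.035) was 1.66-fold in size, with replicate 1 the lowest leukemia array.

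Of the 4 small-subunit genes 2 fell, with a median change of -0.42. Rrp12, which acts in maturation and export of the subunits, measured 7.88, 8.19 and 7.86 in leukemia, against 8.63, 8.47 and 8.60 in wild-type, a change of -0.59 ± 0.14 (limma adjusted p = 0.014). All 3 leukemia values lay below the wild-type range. Utp20, a large scaffold protein of the early small-subunit particle, fell by 0.51 on the log2 scale (SE 0.16, limma adjusted p = 0.0443). Rrp9, a protein of the U3 snoRNP that takes part in the first cuts of the precursor, measured 8.20, 9.37 and 8.95 in leukemia, against 9.27, 9.05 and 9.21 in wild-type. Its leukemia arrays lay on both sides of the wild-type range, and its change of -0.34 did not pass (limma adjusted p = 0.364). Wdr43 had a change of -0.05 with an interval of -0.41 to 0.31 (limma adjusted p = 0.807).

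Of the 7 genes of RNA polymerase I and of general nucleolar proteins, 4 fell and none rose, with a median change of -0.39. Polr1b, the second largest subunit of RNA polymerase I, measured 7.37, 8.03 and 8.09 in leukemia, against 8.62, 8.74 and 8.70 in wild-type. The groups were clearly apart, with a change of -0.86 ± 0.21, 1.81-fold lower in leukemia (limma adjusted p = 0.0149). Mybbp1a, a Myb-binding protein of the nucleolus, measured 10.57, 10.63 and 10.52 in leukemia, against 11.01, 10.95 and 10.92 in wild-type, a change of -0.39 ± 0.07 (limma adjusted p = 0.00368). Noc2l, the mouse counterpart of a yeast pre-ribosome transport factor and in mammals also an inhibitor of histone acetyltransferases, fell by 0.53 on the log2 scale (limma adjusted p = 0.0339). Ncl, nucleolin, a major RNA-binding protein of the nucleolus, fell by 0.23 (limma adjusted p = 0.0226), but its probe sets disagreed, as described with the other probe sets.

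The general nucleolar proteins also include members whose change did not pass. Npm1, nucleophosmin, an abundant chaperone of the granular nucleolus that is often mutated in human acute myeloid leukemia, measured 13.05, 13.07 and 12.96 in leukemia, against 13.16, 13.05 and 13.04 in wild-type. The groups overlapped, and the change of -0.06 had an interval of -0.17 to 0.06 (limma adjusted p = 0.358), so a fall as large as that of Fbl lies outside it. Gnl3, nucleostemin, a nucleolar GTP-binding protein of proliferating cells, measured 9.95, 11.12 and 11.17 in leukemia, against 11.39, 11.17 and 11.28 in wild-type. Replicate 1 was far below every other array, the other leukemia arrays lay within 0.2 of the wild-type mean, and the change of -0.54 (interval -1.27 to 0.20) did not pass (limma adjusted p = 0.203). Ddx21, an RNA helicase of the nucleolus, had a change of -0.15 (limma adjusted p = 0.257).

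The 3 genes of polyamine and pyrimidine synthesis did not move together. Odc1, ornithine decarboxylase, the first and rate-limiting enzyme of polyamine synthesis, measured 11.62, 11.80 and 11.87 in leukemia, against 11.49, 11.28 and 11.54 in wild-type. It rose by 0.33 ± 0.09, 1.26-fold (limma adjusted p = 0.0288), with every leukemia array above every wild-type array. Srm, spermidine synthase, the enzyme that makes spermidine in the same pathway, measured 9.50, 10.97 and 10.60 in leukemia, against 11.08, 11.07 and 11.11 in wild-type. The wild-type arrays lay within 0.05 of each other while the leukemia arrays spanned more than 1 log2 unit, and the change of -0.73 (interval -1.54 to 0.08) did not pass (limma adjusted p = 0.126). Cad, the enzyme of the first steps of pyrimidine synthesis, measured 9.62, 9.67 and 9.33 in leukemia, against 9.95, 9.93 and 9.81 in wild-type, a change of -0.36 ± 0.12 just past the threshold (limma adjusted p = 0.0458).

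**Figure D2:**
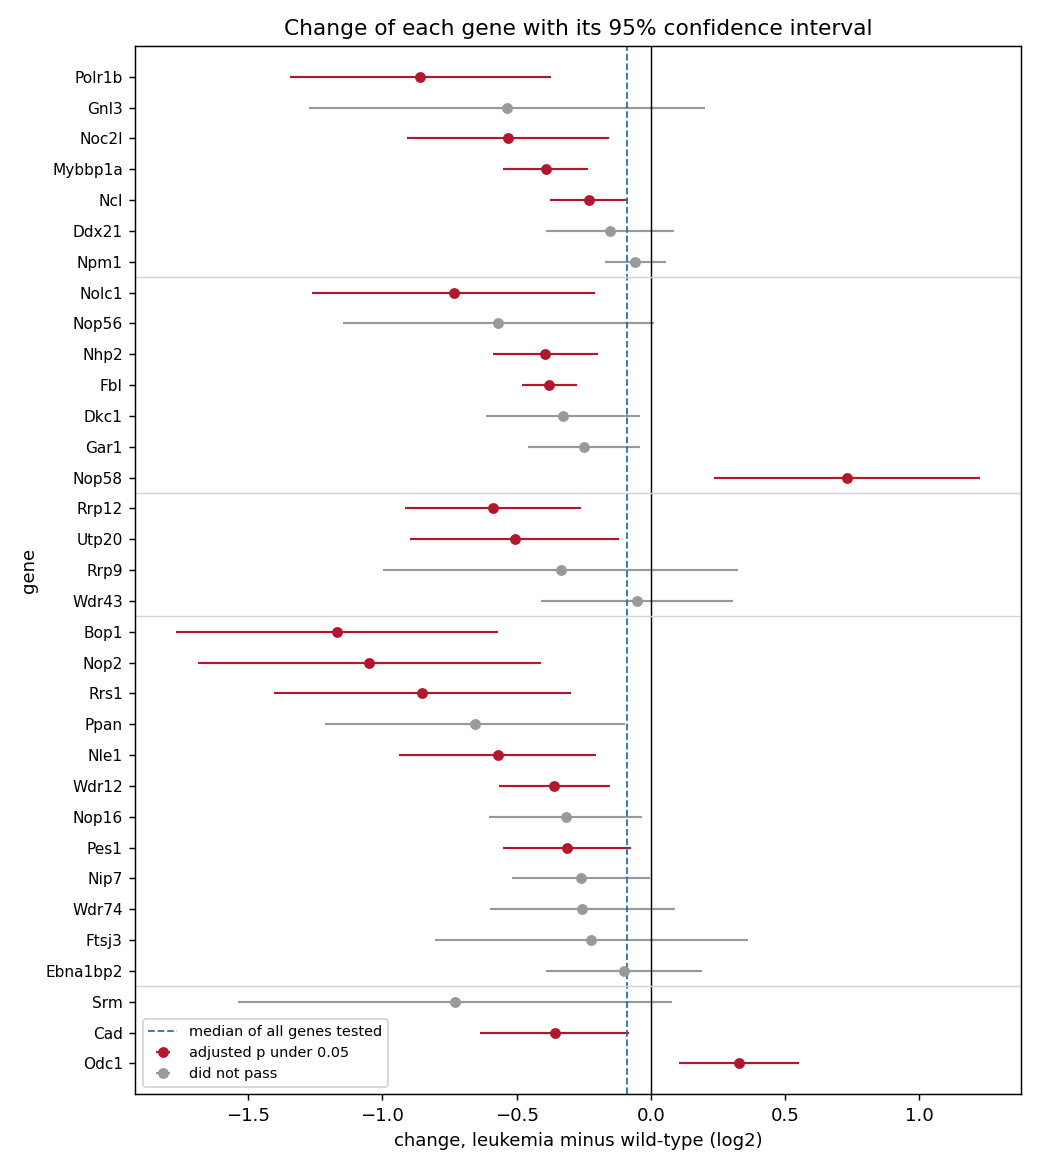
Change in leukemia against wild-type on the log2 scale for the 33 genes, with the 95% interval of the limma fit, by role, with called genes in red, the others in grey and a dashed line at the median of all tested genes (-0.09). Bop1 (-1.17) and Nop2 (-1.05) are lowest, and Odc1 (0.33) and Nop58 (0.73) lie to the right of 0 with their whole intervals.

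How firmly a gene was called differed within the list. Bop1, Nhp2, Mybbp1a and Fbl passed under each of 17 alternative settings. Another 8 genes, Nolc1, Rrs1, Nop2, Nle1, Noc2l, Pes1, Cad and Utp20, no longer passed when any 1 of the wild-type arrays was left out. Polr1b missed the threshold without wild-type replicate 2 (limma adjusted p = 0.0595) or replicate 3 (0.0578), and Rrp12 without wild-type replicate 1 (0.0605) or replicate 3 (0.0621). Wdr12 and Ncl were also lost without wild-type replicate 1 or 3. Neither risen gene passed throughout: Nop58 was lost without wild-type replicate 2 or 3 or leukemia replicate 2 or 3 (limma adjusted p 0.053 to 0.0937), and Odc1 without wild-type replicate 1 or 2 or leukemia replicate 2 or 3 (0.0638 to 0.0891). Without 1 wild-type array only 4 to 7 genes were called lower, against 16 with all arrays. Without wild-type replicates 1, 2 and 3 in turn, 5, 7 and 4 of the 33 genes were called lower. In these fits 17.8%, 16.8% and 15.6% of all tested genes were called lower, against 25.2% with all arrays. The share of the list thus lay below that of all tested genes without wild-type replicate 1 or 3.

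Leukemia replicate 1 stood lower than the other leukemia arrays for most of these genes. It was the lowest leukemia array for 26 of the 33 genes, or 78.8%, beside 43.3% of all tested genes, and for 11 genes (33.3%, beside 17.4%) it lay more than 0.5 log2 units under the mean of the other leukemia arrays. Set singly against the wild-type mean, the median of the 33 genes was -0.57 for leukemia replicate 1, -0.24 for replicate 2 and -0.29 for replicate 3. Over all tested genes the same medians were -0.10, -0.09 and -0.05. Of the 33 genes, 31 lay below the wild-type mean on replicate 1, 27 on replicate 2 and 28 on replicate 3. Over all 9715 tested genes these numbers were 5465, 5633 and 5252. Most genes of the list thus lay lower on each of the 3 leukemia arrays, while the size of the fall differed between them.

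Without leukemia replicate 1, the median of the list was -0.30, and 19 genes fell and 2 rose, beside 28.6% of all tested genes called lower, 19.9% called higher and 48.5% either way. All 18 called genes were kept, and Dkc1 (limma adjusted p = 0.0269), Nop56 (0.0265) and Ppan (0.00936) were added. The largest falls were smaller, with -0.86 for Bop1, -0.72 for Nop2, -0.63 for Polr1b and -0.57 for Rrs1. Fbl (-0.38), Mybbp1a (-0.39) and Wdr12 (-0.37) were as low as with all arrays. Arrays that share a hybridization date entry in the array records were treated as 1 run, a batch. Leukemia replicate 1 shared its run with the wild-type arrays, and leukemia replicates 2 and 3 were in another run. A fit with the run as a factor therefore compares leukemia replicate 1 with the wild-type arrays, and 26 genes fell in it and none rose, with a median of -0.57, beside 32.0% of all tested genes called lower, 20.9% called higher and 52.8% either way. There Bop1 had a change of -1.79, Nop2 of -1.71, Srm of -1.59 and Gnl3 of -1.33, whereas Fbl had -0.38 and Mybbp1a -0.39. The other run holds leukemia arrays alone and gives no value.

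**Figure D3:**
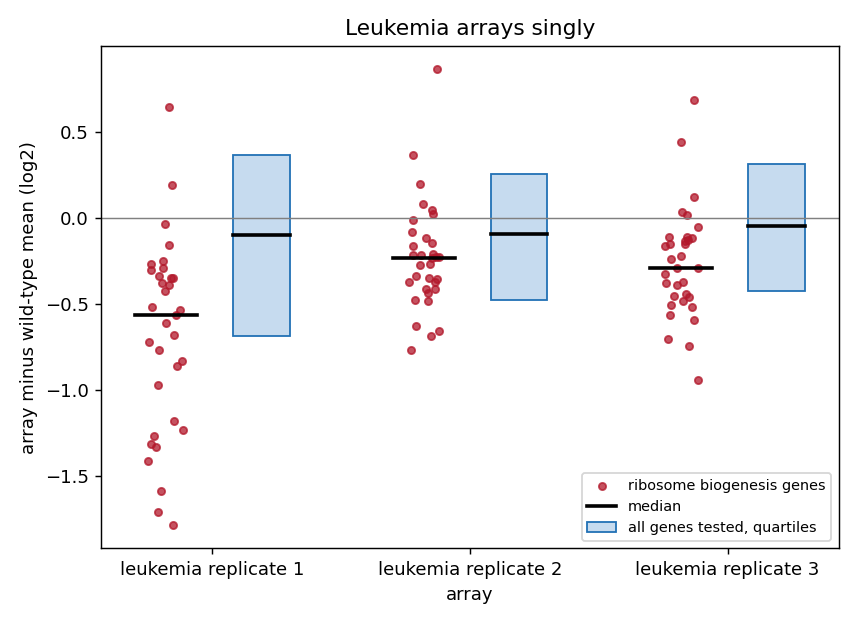
Each leukemia array set against the wild-type mean, with a point for each of the 33 genes (log2 intensity minus the wild-type mean) and the median as a black line, beside a box of the quartiles and median of all tested genes. The medians of the list are -0.57, -0.24 and -0.29 for leukemia replicates 1, 2 and 3.

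Measures of RNA quality moved with the groups and with replicate 1. The control probe set for the 5′ part of 18S ribosomal RNA measured 12.35, 11.25 and 11.14 in leukemia, against 9.41, 8.18 and 7.77 in wild-type (log2 intensity). The difference was 3.13, with the smallest exact permutation p that 3 against 3 arrays allow, 0.1 (two-sided), and leukemia replicate 1 was the highest of all arrays. The 3′ minus 5′ difference of Gapdh, which grows as RNA is degraded or incompletely copied, was 0.31, 0.08 and 0.01 in leukemia, against -0.14, -0.10 and -0.06 in wild-type, and that of Actb was 0.70, 0.31 and 0.34 in leukemia, against 0.32, 0.50 and 0.45 in wild-type. Replicate 1 had the largest value of both genes, while the groups overlapped for Actb (exact permutation p = 0.9). The part of these measures in the result was not tested.

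Further probe sets gave a check on the genes themselves. Of the 33 genes 20 had more than 1 probe set, and 24 of their 28 further probe sets were bright enough for a fit over all probe sets. Of these 24, 23 had the sign of the brightest probe set of their gene, 9 passed as lower and 2 as higher. The share of all probe sets called in that fit is not given here, so these counts lack a background. Several gave larger falls than the brightest one: Mybbp1a had -1.13 on its other probe set (limma adjusted p = 0.00403), Cad -0.99 (0.00154), Pes1 -0.89 (0.00584) and Nhp2 -0.69 (0.00176). The other probe sets of Bop1 (-0.65), Fbl (-0.34) and Rrs1 also passed as lower, as did that of Nip7 (-0.55, limma adjusted p = 0.0351), whose brightest probe set had not passed. For the risen Odc1, one of the 2 further probe sets of Odc1 passed as higher at 0.47 (limma adjusted p = 0.0406). Nolc1 was less even, with -1.36 (limma adjusted p = 0.0531) on one further probe set and -0.19 (0.710) on the other.

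Ncl was the gene whose probe sets disagreed in sign. Its brightest probe set fell by 0.23 on the log2 scale. Another measured 8.28, 8.86 and 8.92 in leukemia, against 9.39, 9.43 and 9.44 in wild-type, a change of -0.73 (limma adjusted p = 0.0183). Yet another measured 9.54, 9.58 and 9.72 in leukemia, against 9.02, 8.14 and 8.05 in wild-type, a change of 1.21 (limma adjusted p = 0.00995). In both the groups did not overlap, and the mean over the probe sets of Ncl gave 0.06 (limma adjusted p = 0.687), so these arrays give no single direction for nucleolin. The brightest probe sets of Nop56, Fbl, Nhp2, Gar1 and Cad carry a suffix for probes shared with other transcripts, and those of Npm1, Gnl3, Odc1, Srm and Mybbp1a one for several transcripts of the same gene. Further loci could contribute to the first 5, and no second probe set of Nop58 was measured.

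**Figure D4:**
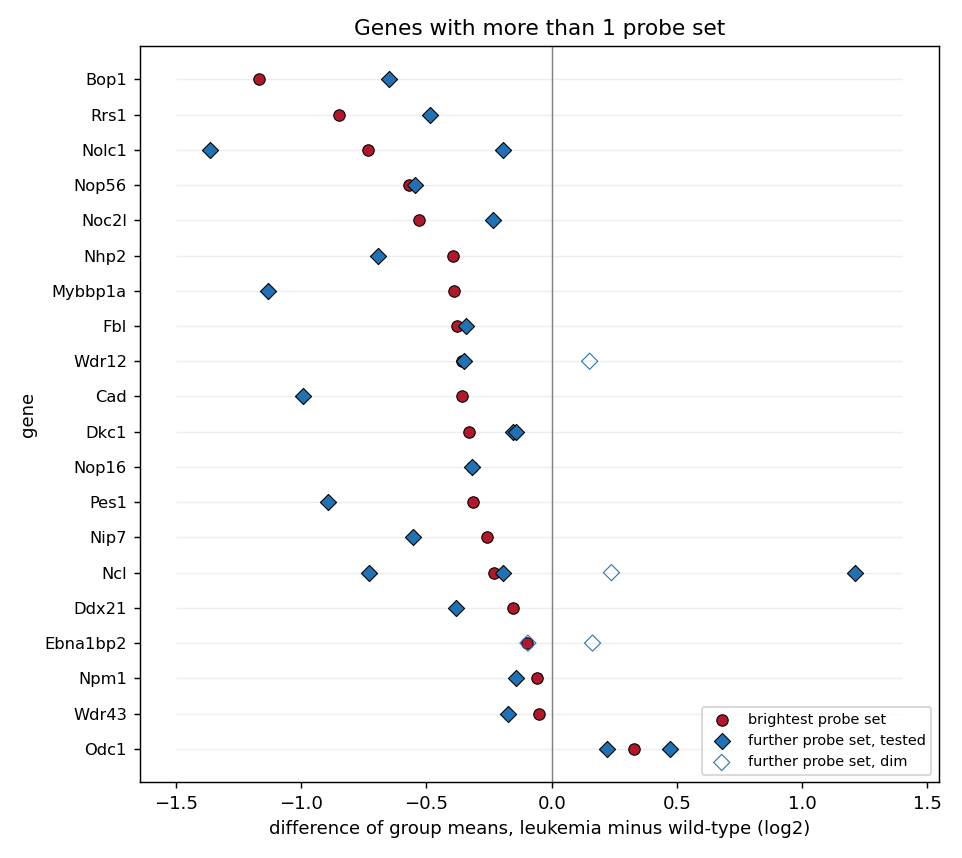
Difference in leukemia against wild-type (log2) for every probe set of the 20 genes with more than 1, with circles for the brightest probe set of each gene, filled diamonds for further tested ones and open diamonds for dim ones. For Ncl the further probe sets include one at -0.73 and one at 1.21.

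The upstream sequences of the genes at either end of the list are shown because ribosome biogenesis genes are known as targets of MYC, which binds the E-box CACGTG. They are the 250 bases before the annotated start, read 5′ to 3′ on the gene's strand from RefSeq on GRCm38.p6. Sequences of 27 of the 33 genes were matched, and that of Bop1, the gene with the largest fall, was not used here. Those of Nop2 (chr6:125131633-125131882), Polr1b (chr2:129100746-129100995), Nop58 (chr1:59684756-59685005) and Odc1 (chr12:17544623-17544872) all lie on the plus strand. Capitals mark the E-box CACGTG or a GC box, GGGCGG or its reverse complement CCGCCC.
Nop2: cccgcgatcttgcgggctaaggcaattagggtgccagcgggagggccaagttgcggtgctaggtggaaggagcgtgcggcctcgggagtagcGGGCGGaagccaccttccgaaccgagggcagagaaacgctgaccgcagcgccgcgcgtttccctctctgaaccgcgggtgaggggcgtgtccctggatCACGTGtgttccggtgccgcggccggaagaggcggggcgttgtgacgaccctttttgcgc
Polr1b: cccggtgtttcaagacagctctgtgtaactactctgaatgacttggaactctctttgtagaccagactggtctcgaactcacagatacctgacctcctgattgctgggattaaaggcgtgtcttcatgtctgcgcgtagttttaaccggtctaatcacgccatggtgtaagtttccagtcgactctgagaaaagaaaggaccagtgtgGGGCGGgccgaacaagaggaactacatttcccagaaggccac
Nop58: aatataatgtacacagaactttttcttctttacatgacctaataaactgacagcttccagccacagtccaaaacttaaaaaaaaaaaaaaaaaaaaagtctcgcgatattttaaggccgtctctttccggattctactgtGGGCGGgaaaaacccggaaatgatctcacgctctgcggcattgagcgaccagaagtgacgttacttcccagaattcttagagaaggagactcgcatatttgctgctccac
Odc1: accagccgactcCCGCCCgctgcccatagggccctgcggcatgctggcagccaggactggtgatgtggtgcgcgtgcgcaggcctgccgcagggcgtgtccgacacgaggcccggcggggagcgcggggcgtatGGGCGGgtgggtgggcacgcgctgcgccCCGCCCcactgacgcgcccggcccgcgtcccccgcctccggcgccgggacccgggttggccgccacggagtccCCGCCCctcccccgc
Nop2, which fell, holds the E-box 60 bases before its start and a GC box at 158 bases, and Polr1b, which fell too, holds 1 GC box at 42 bases and no E-box. Of the risen genes, Nop58 has 1 GC box at 110 bases, and Odc1 has 4, at 238, 116, 88 and 15 bases.

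Over the 27 matched genes, the E-box was found in the window of 1 gene, Nop2, which is 3.70%, beside 10.4% of 8005 tested genes and 6.86% of all 27025 genes with a sequence used here. A GC box stood in 20 windows (74.1%), beside 65.5% of tested genes. The letters CCAAT, or ATTGG on the other strand, stood in 6 (22.2%), beside 40.9% of tested genes, and TATAAA, or TTTATA, in 3 (11.1%), beside 7.37%. Each motif was searched on its own, so that matches may overlap. The median GC content was 57.6% for the list and 60% for tested genes. These counts describe letters in a short window, and an E-box elsewhere in a gene would not be seen.

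Other genes of the pathway, chosen by role and outside the list, were counted in the same fit. Of 133 tested genes in 5 lists (RNA polymerase I transcription, snoRNP core and assembly, small subunit, pre-60S and RNA exosome), 37 fell (27.8%, near the 25.2% of all tested genes) and 4 rose (3.01%, beside 16.9%), with a median change of -0.26. The snoRNP list had 5 of 7 lower (71.4%) and a median of -0.50. It was led by the helicases Ruvbl2 (-0.71, limma adjusted p = 0.00845) and Ruvbl1 (-0.53, limma adjusted p = 0.0385), which help to assemble box C/D particles. Of 48 small-subunit genes 17 fell (35.4%) and 1 rose (median -0.32). Wdr46 (-1.01) and Pwp2 (-0.98), both of the small-subunit processome, had the largest falls, and Esf1 rose by 0.75. Of 49 pre-60S genes 11 fell (22.4%, below the share of all tested genes) and 1 rose (median -0.26). The largest falls were in the nucleolar protein Ccdc86 (-1.45) and in Rrp1b (-1.38), with a small rise in Nop53 (0.19).

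RNA polymerase I transcription and the RNA exosome moved less as lists. Of 15 RNA polymerase I genes 3 fell (20%, beside 25.2% of all tested genes) and 1 rose (6.67%, beside 16.9%), with a median of -0.08. Of 14 exosome genes 1 fell and 1 rose (7.14% each), with a median of -0.13. Ubtf, the factor that opens ribosomal DNA for the polymerase, fell by 1.04 on the log2 scale (limma adjusted p = 0.00213). The mean over its probe sets gave -0.05, but includes a probe set that was dim on every array. In the SL1 complex, which recruits the polymerase, Taf1c fell by 0.69 and Taf1b rose by 0.60. Among the exosome subunits Exosc5 fell by 0.60, whereas Exosc8 rose by 0.67 (limma adjusted p = 0.000451). Purine and pyrimidine synthesis had 7 of 15 genes lower (46.7%, beside 25.2% of all tested genes) and none higher, a median of -0.37. Gart was at -1.18 (limma adjusted p = 0.00262) and Ppat at -0.88, both enzymes of purine synthesis. Of 8 genes of polyamine synthesis and its control 2 fell (25%, near the 25.2% of all tested genes) and 1 rose (12.5%, beside 16.9%). Their median was 0.10. Azin1, an inhibitor of the antizymes that hold ornithine decarboxylase down, was at -1.09. Another tested probe set of Azin1 gave -0.24 (limma adjusted p = 0.146). The mean over its probe sets gave -0.18, but includes one that was dim on every array. Eif5a, the translation factor modified from spermidine, fell too (-0.26). The risen gene was Dhps, the enzyme that begins this modification (0.43, but 0.067 with a limma adjusted p of 0.713 on its other probe set).

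The ribosomal protein genes themselves were near the centre. Of 43 tested, 8 fell (18.6%, beside 25.2% of all tested genes) and 2 rose (4.65%, beside 16.9%). The median change was -0.04, beside -0.09 over all tested genes. The median SD within leukemia was 0.04 for this list, beside 0.22 over all tested genes. Whether brightness limits the differences of these genes was not tested. The largest called changes without overlap were falls of Rpl37 (-0.63) and Rps6 (-0.47) and rises of Rps25 (0.70) and Rpl27a (0.67). Many of these genes have near-identical pseudogenes, so single values are uncertain. Of the genes named from the wider lists so far, Ruvbl1, Rrp1b, Nop53, Ppat, Dhps and Rps6 were not called when any 1 of the wild-type arrays was left out. Pwp2, Taf1c, Taf1b and Esf1 were not called without certain single wild-type arrays. Leaving out leukemia replicate 1 or 3 also ended the call of Nop53, replicate 2 or 3 that of Dhps, and replicate 3 that of Rps6.

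**Figure D5:**
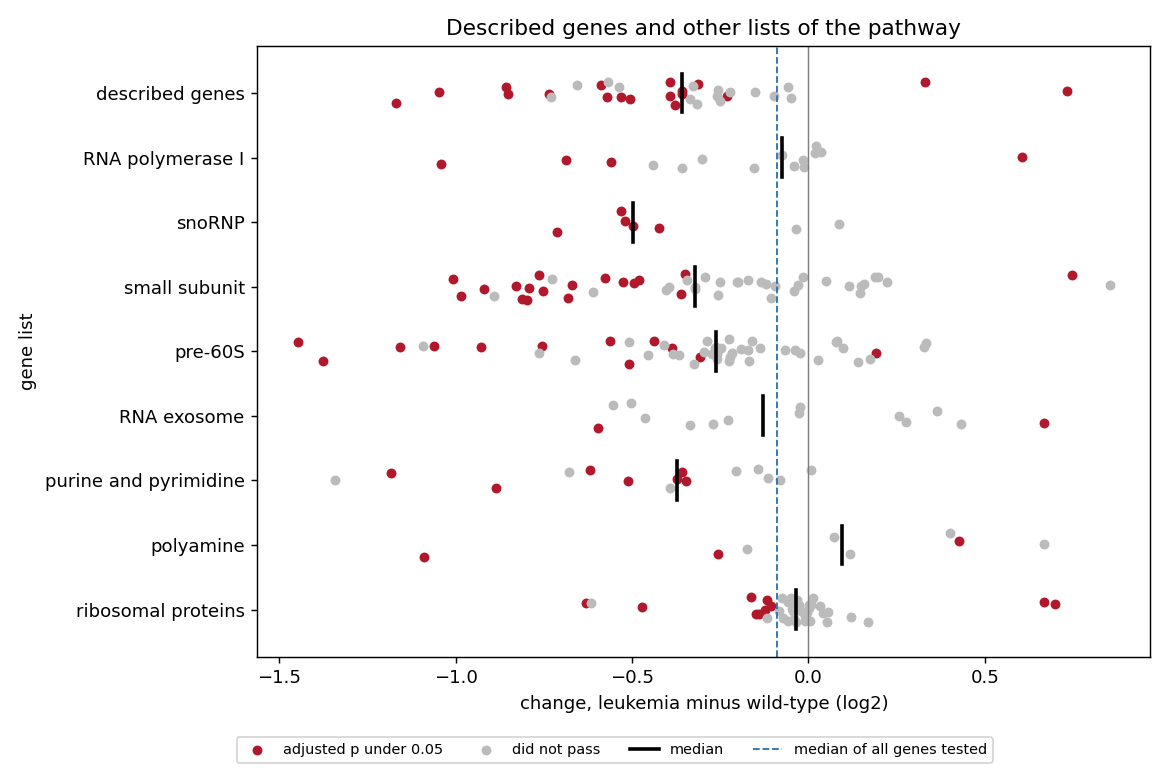
Changes in leukemia against wild-type (log2) for the genes of the wider lists and for the 33 genes of the list described here, with a point for each gene, red where called, a black line at the median of each list and a dashed line at that of all tested genes. The medians run from -0.50 for snoRNP core and assembly to 0.10 for polyamine synthesis, with ribosomal protein genes at -0.04.

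The MYC family itself was measured on the same arrays. Myc measured 9.58, 10.73 and 10.93 in leukemia, against 11.45, 11.37 and 11.63 in wild-type, with replicate 1 again the lowest of all. Its change was -1.07 ± 0.33 (limma adjusted p = 0.0369), and the call was lost without any 1 wild-type array (limma adjusted p 0.0878 to 0.117) and without the intensity trend (0.0513). Without leukemia replicate 1 the change was -0.66. Mycn, the family member best known from neural tumors and from stem cells, measured 11.15, 11.52 and 11.10 in leukemia, against 5.49, 5.42 and 5.22 in wild-type, where the gene was dim on all 3 arrays. It was called higher (limma adjusted p = 4e-06). Another probe set of Mycn pointed the other way, with 3.13, 3.21 and 3.51 in leukemia, where it was dim on all 3 arrays, against 7.17, 6.51 and 7.16 in wild-type. No size of change is given for either, since 1 group of each lay in the dim range. Max, the partner that all MYC proteins need to bind DNA, had a change of 0.40 that did not pass (limma adjusted p = 0.22). Of 11 tested genes of the MYC and MAX network 3 rose (27.3%, beside 16.9% of all tested genes) and 2 fell (18.2%, beside 25.2%). Among them were Mxi1, a MAX partner that opposes MYC, at 0.95 (limma adjusted p = 0.00536) and Mlxip at -0.55 (limma adjusted p = 0.0439). The call of Mlxip was lost without any 1 wild-type array and without leukemia replicate 2 or 3.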

How the data were processed

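The 3 leukemia and 3 wild-type samples were each hybridized to 1 Affymetrix Mouse430_2 array, with biotin-labelled cRNA made from 200 ng of total RNA per the labels' protocols. Groups and replicate numbers come from the sample titles. The authors deposited intensity values, which are linear (3.31 to 18869). RMA was used per the submitters' processing notes, and its version and settings are not given in the sources used here. RMA shares information between arrays, so values depend on which arrays were processed together. Log2 was taken with no pseudocount. The number of arrays limits the precision, and no detection calls were used.

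Of 28821 probe sets, 23750 had 1 gene symbol in the platform annotation, 677 several, 4355 none and 39 were controls. The brightest single-symbol probe set of each gene was used. Of 13146 genes, 9715 lay at or above the 40th percentile of their array on at least 3 arrays and were tested. Groups were compared by a two-sided limma fit (version 3.58.1, R 4.3.3) that used lmFit and then eBayes with its trend option. It had no covariate and left 4 degrees of freedom. Adjustment was by Benjamini-Hochberg over all tested genes, with a threshold of 0.05, and the code was tested on simulated data. Levels are not compared between probe sets. Figures were drawn with matplotlib 3.10.9 in Python 3.11.15.

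The 34 genes, the wider lists and the marker lists were chosen with earlier results of these data known. Every measured gene of the list may be named. From each wider list the 2 largest rises and 2 largest falls past the threshold without overlap are named, and Myc, Mycn and Max always. Arrays are listed singly for the genes with the 6 largest falls, the risen ones, at least 1 gene of each role and the brightest that did not pass. Further genes listed singly (among them Fbl, Mybbp1a, Nhp2, Wdr12, Cad, Srm, Gnl3, Nop56 and Rrp9) were chosen after their values were seen. The E-box, GC, CCAAT and TATA motifs were searched on both strands. Alternatives were other filters, probe set rules, scalings, a value of 16 added before log2, no trend and array weights. Further ones had the hybridization run or the replicate number as a factor, or each array left out. All 6 value columns were mapped to samples, and 0 were not.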

Additional observations from a re-analysis of the deposited data

Results flagged for a closer look

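The 3 control probe sets for 18S ribosomal RNA lie outside the comparison of genes and were higher on every leukemia array than on every wild-type array. The log2 difference (leukemia minus wild-type) was 3.13 for the 5′ probe set (8.73-fold), 1.87 for the middle one (3.65-fold) and 0.98 for the 3′ one (1.98-fold). Each had an exact permutation p of 0.1, the smallest that 3 against 3 arrays allow. No other value was set apart, because groups of 3 are too small for a search for single outlying arrays.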

How the results depend on the processing

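The 16 falls and 2 rises of the list were 12 to 19 falls and 1 or 2 rises under other filters, probe set rules, scalings, no trend and array weights. Of all tested genes, 21.0% to 29.1% were called lower in these fits. Without probe sets of the suffixes _s_at, _x_at and _a_at, 28 genes of the list were tested and 1 rose. Odc1 has only such probe sets and was not tested there. Without the trend there was 1 rise, and Odc1 did not pass (limma adjusted p = 0.0732). Leaving out 1 array gave 4 to 19 falls and 0 to 2 rises, with the fewest falls without wild-type replicate 3. There 15.6% to 28.6% of all tested genes were called lower. With the fluidics run as a factor there were 26 falls and 0 rises and a median of -0.57, and in the wider lists 75 falls and 10 rises, against 37 and 4. Leaving out 1 array moved the 37 falls and 4 rises of the wider lists to 17 to 48 falls and 1 to 6 rises. It moved the 4089 changed genes of the array to 2647 to 4716. Fewer samples enter each of these fits, and no further cause was tested. The sign turned for Ncl with the mean of its probe sets (0.059), for Npm1 with arrays centred on their median (0.020), for Wdr43 when centred (0.029), with array weights (0.063) and on leaving out 1 array (-0.13 to 0.10), and on leaving out 1 array for Ftsj3 (-0.35 to 0.031) and Ebna1bp2 (-0.16 to 0.027). None of these but Ncl had passed. Without suffixed probe sets it turned for Ccdc86 (0.034), Nop53 (-0.037) and Ppat (0.12), where another probe set is used. Centring moved the median of all genes to -0.01 and that of the list to -0.28. Replicate numbers gave no pairing: same-numbered samples had deviations correlated at -0.07, 0.05 and 0.03. The replicate block gave 12 falls and 2 rises, beside 21.8% of all tested genes called lower. It gave a median of -0.36 and 3565 changed genes. Over the settings, 456 comparisons for genes of the list kept their direction and side of the threshold, 66 lost the call, 26 gained it and 8 changed sign. Dim genes and 3 arrays a group limit what can be called.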
